A study of Mus musculus with 9 samples.

Results

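The acute-phase genes described here are Saa1, Saa2, Saa3, Lcn2, Hp and Cp, 6 of the 22376 genes listed for RNA sequencing of mouse bone-marrow-derived macrophages. They were taken by symbol and had been chosen by their high levels in the cultures given an antibody against PD-L1, so their values in comparisons with that antibody are given as a description, with no p-value, and support nothing. Marrow of wild-type C57Bl/6 mice was grown for 1 week with 10 ng/ml macrophage colony-stimulating factor (M-CSF). The macrophages were then washed free of M-CSF and kept for 48 h at 50000 per well. The PD-L1 antibody group (libraries 1 to 3) received 100 µg/ml of antibody to PD-L1, the ligand of the inhibitory T cell receptor PD-1. The isotype antibody group (libraries 4 to 6) received 100 µg/ml of an antibody of the same class with no intended target, and the untreated group (libraries 7 to 9) received none. Nothing in the labels ties the libraries of a group to separate mice or separate cultures. The p-values therefore measure the spread between the 3 samples of each group, and this spread may be technical.

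In an acute-phase response, cytokines such as interleukin-1, interleukin-6 and tumour necrosis factor switch on a set of secreted proteins through the transcription factors NF-kB, STAT3 and the C/EBP family. Hepatocytes are the best known source, but macrophages make some of these proteins themselves. The serum amyloid A proteins (Saa1, Saa2 and Saa3) are small apolipoproteins of high-density lipoprotein, and mouse Saa3 is the one best known from macrophages and fat tissue. Lcn2 (lipocalin 2) binds bacterial siderophores and so keeps iron from bacteria, Hp (haptoglobin) binds free haemoglobin, and Cp (ceruloplasmin) is a copper-containing enzyme that oxidises iron after its export from cells.

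Levels are given in CPM, exonic read equivalents per 1e+06 of a library scaled by TMM. Fold changes are differences of log2(CPM + 1), a scale that shrinks the change of genes with low values. Totals ran from 23554320 to 40116467 exonic read equivalents per library, and 13741 genes passed the filter on low values. Untreated 7 stood apart from the other untreated libraries. Values against untreated cells include it, and those that change most without it are also given without it, some only in the closing section. The deposited names place the library PD-L1 antibody 2 in another sequencing lane than the other 8. The cells carried macrophage markers in every library, with the 9 markers looked at summing to 22138 to 26480 CPM in PD-L1 antibody libraries, 19466 to 23057 CPM in isotype antibody libraries and 17417 to 23004 CPM in untreated libraries. Lyz2 alone had 9884 to 15137 CPM per library within these sums. The markers of hepatocytes, 7 of 8 of which were listed, summed to at most 0.359 CPM in any library, and none passed the filter.

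Saa3 was the member with the most RNA. It had 10815, 10192 and 11974 CPM in the PD-L1 antibody libraries, against 161, 70.4 and 36.9 CPM in the isotype antibody libraries and 72.8, 88.6 and 188 CPM in the untreated libraries. Every PD-L1 antibody library lay above every other library, and the lowest of them was 54.2 times the highest of the other 6. The mean was 10994 ± 905 CPM in the PD-L1 antibody group, 89.5 ± 64.4 CPM in the isotype antibody group and 116 ± 62.4 CPM in untreated cells (SD, n = 3 each). These means gave ratios of 123 to the isotype antibody and 94.4 to untreated cells. On the log2(CPM + 1) scale the differences were 7.17 (SE 0.45) and 6.67 (SE 0.45). Per kilobase of exon, Saa3 reached 20704 ± 1704 CPM in the PD-L1 antibody libraries (SD, n = 3), rank 1 among the 13741 genes. In isotype antibody libraries it stood at 169 CPM per kilobase, rank 364, and in untreated libraries at 219 CPM per kilobase, rank 276. The CPM of Saa3 equalled 1.10% of the TMM-scaled library size in the PD-L1 antibody group, 0.00895% in the isotype antibody group and 0.0116% in untreated cells. These are scaled values and not shares of the unscaled totals.

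The close relatives Saa1 and Saa2 were near 0 outside the PD-L1 antibody libraries. Saa1 had 5.19, 2.84 and 4.68 CPM in the PD-L1 antibody libraries, against 0.0677, 0 and 0.0247 CPM in the isotype antibody libraries and 0.0456, 0.171 and 0.0654 CPM in the untreated libraries. The PD-L1 antibody libraries did not overlap with any other library. Saa2 had 0.495, 0.412 and 0.480 CPM in the PD-L1 antibody libraries, was listed in 1 isotype antibody library, at 0.0186 CPM, and was absent from the other 5 libraries, where it was taken as 0. Both genes passed the filter only through the group where they were high. No fold change is given for Saa2. That of Saa1 depends on the pseudocount: against the isotype antibody it was 2.32 on the log2(CPM + 1) scale (SE 0.17), 3.12 with a pseudocount of 0.5 and 0.87 with a pseudocount of 5. With the PD-L1 antibody Saa1 stood at 6.98 ± 2.04 and Saa2 at 0.758 ± 0.0727 CPM per kilobase of exon (SD, n = 3 each), both far below Saa3 in the same libraries.

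**Figure D1:**
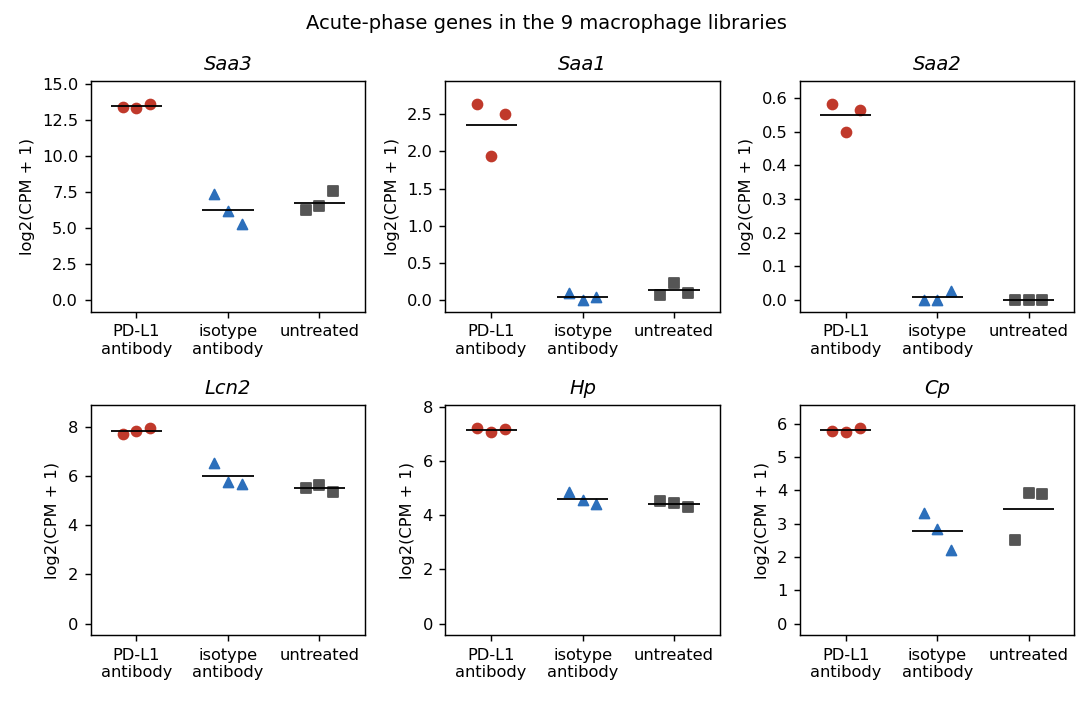
Level of each acute-phase gene as log2(CPM + 1) (vertical axis, scaled per gene) in the 9 libraries, grouped as PD-L1 antibody, isotype antibody and untreated; points are libraries and lines are group means (n = 3). In every panel the 3 PD-L1 antibody libraries lie above the other 6, with Saa3 between 10192 and 11974 CPM there and at most 188 CPM elsewhere. The genes were chosen by their high levels in the PD-L1 antibody libraries, so this separation is a description only. The share of all genes separated in this way was not computed. In the fit over all genes 18.2% were called higher against the isotype antibody and 22.0% against untreated cells.

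The 3 genes lie in the order Saa3, Saa1, Saa2 within one stretch of chromosome 7 (GRCm38), Saa3 at chr7:46711998-46715676 on the minus strand, Saa1 at chr7:46740499-46742980 on the minus strand and Saa2 at chr7:46751833-46754314 on the plus strand. Saa4, a relative that lies between Saa3 and Saa1 and is made by the liver without induction, was listed only in the PD-L1 antibody libraries, at 0.346, 0.261 and 0.404 CPM, and did not pass the filter. These genes differed in the ratio of exonic read equivalents to the deposited reads over the gene's span. For Saa3 the ratio was 62.1, 61.8 and 63.7% in the PD-L1 antibody libraries. It was 62.6, 65.9 and 64.2% in the isotype antibody libraries and 63.9, 65.2 and 65.9% in the untreated libraries. For Saa1 this ratio was 21.5, 15.8 and 21.3% in the PD-L1 antibody libraries, out of 865, 402 and 532 reads. For Saa2 it was 3.46, 3.37 and 3.72%, out of 512, 274 and 313 reads, and for Saa4 1.94, 1.81 and 2.48%, out of 639, 324 and 395 reads. So in the PD-L1 antibody libraries exonic coverage was small beside the reads assigned to the Saa1, Saa2 and Saa4 spans, and larger for Saa3. Where the other reads lay was not measured. The transcripts of Saa1 and Saa2 were 94.4% identical over 606 aligned bases, and how the authors' alignment placed reads that match both is not given in the sources used here. Their separate values are therefore uncertain. The average base quality in the PD-L1 antibody libraries was 33.24, 35.91 and 31.79 for Saa1 and 32.35, 32.86 and 32.66 for Saa2. For Saa3 it was 37.02, 37.53 and 37.05 in the same libraries. Whether reads from elsewhere, Saa3 included, add to the Saa1 and Saa2 values was not tested. Saa1 and Saa3 transcripts were 74.7% identical.

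**Figure D2:**
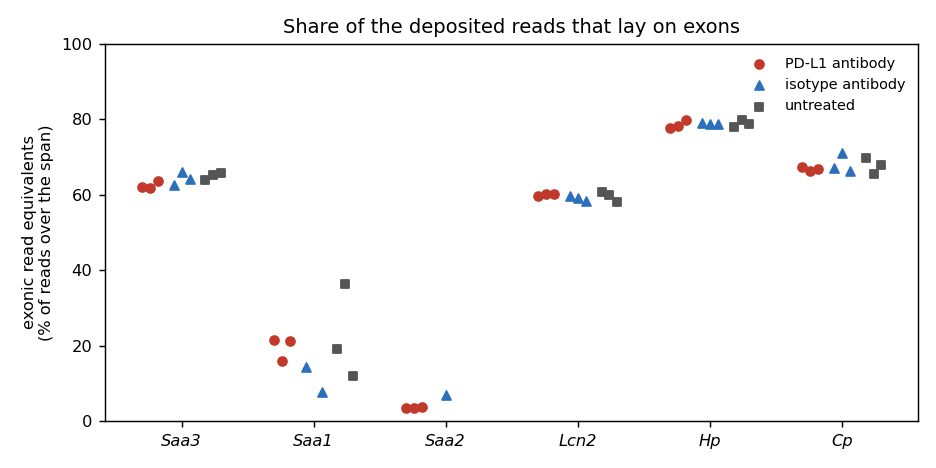
Exonic read equivalents as a percentage of the deposited reads over each gene's span (vertical axis, 0 to 100) for the 6 acute-phase genes, 1 point per library in which the gene was listed, grouped as PD-L1 antibody, isotype antibody and untreated. Saa3, Lcn2, Hp and Cp lie between 58.0 and 80.0% in every library, Saa1 between 15.8 and 21.5% and Saa2 between 3.37 and 3.72% in the PD-L1 antibody libraries.

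The promoters of the 3 genes are shown because the genes share a neighbourhood and were high in the same libraries while their levels differed widely. Each line gives the 250 bases before the start of the deposited transcript, 5′ to 3′ on the gene's own strand, from RefSeq on GRCm38.p6. Capitals mark a match to TTGCNNAA on either strand, the letters searched for the C/EBP family.
Saa3: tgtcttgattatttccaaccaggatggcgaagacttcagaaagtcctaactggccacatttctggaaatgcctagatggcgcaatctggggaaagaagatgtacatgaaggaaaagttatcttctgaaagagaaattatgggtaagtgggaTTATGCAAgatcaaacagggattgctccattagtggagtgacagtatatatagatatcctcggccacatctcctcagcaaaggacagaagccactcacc
Saa1: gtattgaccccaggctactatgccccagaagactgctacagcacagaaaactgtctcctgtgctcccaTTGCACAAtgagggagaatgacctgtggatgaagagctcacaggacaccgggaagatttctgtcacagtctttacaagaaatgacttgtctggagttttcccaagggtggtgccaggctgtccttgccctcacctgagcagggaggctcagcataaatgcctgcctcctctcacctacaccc
Saa2: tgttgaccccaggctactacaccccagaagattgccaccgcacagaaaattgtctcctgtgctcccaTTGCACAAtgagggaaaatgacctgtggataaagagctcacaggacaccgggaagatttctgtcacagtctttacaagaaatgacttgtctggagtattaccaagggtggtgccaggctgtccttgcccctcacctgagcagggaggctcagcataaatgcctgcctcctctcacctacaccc
The windows are chr7:46715677-46715926 (Saa3, minus strand), chr7:46742981-46743230 (Saa1, minus strand) and chr7:46751583-46751832 (Saa2, plus strand). The match lay 99 bases before the start in Saa3, 182 in Saa1 and 183 in Saa2. These distances are from the deposited starts. The RefSeq gene spans reach further upstream, to chr7:46719615 for Saa3 and chr7:46743181 for Saa1. The whole Saa3 window and part of the Saa1 window, with its match, therefore lie inside those spans. The Saa1 and Saa2 windows were identical at 238 of 249 aligned bases (95.6%), and those of Saa1 and Saa3 at 133 of 223 (59.6%). The Saa1 window and the unrelated Lcn2 window were identical at 137 of 199 aligned bases (68.8%). Gaps were left out and the aligned lengths differ, so the last 2 percentages cannot be ranked. Of all 32851 promoter windows searched, 9.56% held TTGCNNAA on either strand. The letters TTCNNNGAA, searched for STAT factors (7.02% of all windows), CTGGGAA, searched for the interleukin-6 response element (9.10%), and the NF-kB consensus (3.90%) had no match in these 3 windows on either strand. A match is a description of the letters and not evidence of binding.

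Lcn2, the siderophore-binding lipocalin, had 206, 228 and 244 CPM in the PD-L1 antibody libraries, against 91.1, 53.0 and 49.8 CPM in the isotype antibody libraries and 44.4, 49.0 and 40.1 CPM in the untreated libraries. The PD-L1 antibody libraries lay above all others. The isotype antibody libraries lay above the untreated ones only narrowly, with 49.8 CPM in isotype antibody 6 and 49.0 CPM in untreated 8. Lcn2 was not called between those groups. Means were 226 ± 18.9 CPM in the PD-L1 antibody group, 64.6 ± 23.0 CPM in the isotype antibody group and 44.5 ± 4.49 CPM in untreated cells (SD, n = 3 each), a log2 fold change of 1.84 (SE 0.19) for the PD-L1 antibody against the isotype antibody and 2.32 (SE 0.19) against untreated cells. Lcn2 lies at chr2:32384637-32387739 on the minus strand. Its promoter window, chr2:32387740-32387989, is shown to set beside those of the Saa genes, again with the TTGCNNAA match in capitals, which lay 216 bases before the start.
Lcn2: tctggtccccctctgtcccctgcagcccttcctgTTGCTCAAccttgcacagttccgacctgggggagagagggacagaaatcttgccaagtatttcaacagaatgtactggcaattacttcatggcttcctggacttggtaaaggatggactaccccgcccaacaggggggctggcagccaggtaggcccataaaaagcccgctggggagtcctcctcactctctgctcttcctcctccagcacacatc
The window held none of the other 3 motifs.

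Hp, the haemoglobin-binding protein, had 147, 132 and 145 CPM in the PD-L1 antibody libraries, against 27.8, 22.6 and 20.4 CPM in the isotype antibody libraries and 21.9, 20.7 and 18.6 CPM in the untreated libraries. The PD-L1 antibody libraries lay far above the rest, and the other groups overlapped. Means were 142 ± 8.19, 23.6 ± 3.76 and 20.4 ± 1.68 CPM in PD-L1 antibody, isotype antibody and untreated libraries (SD, n = 3 each). The log2 fold change was 2.55 (SE 0.11) against the isotype antibody and 2.74 (SE 0.11) against untreated cells, the smallest error among Saa3, Lcn2, Hp and Cp. Hp lies at chr8:109575128-109579172 on the minus strand.

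Cp, the ferroxidase, had 54.0, 53.4 and 57.3 CPM in the PD-L1 antibody libraries, against 8.91, 6.12 and 3.63 CPM in the isotype antibody libraries and 4.69, 14.1 and 13.9 CPM in the untreated libraries. Its PD-L1 antibody libraries were close together and above all others, while untreated 7 lay at about the level of the isotype antibody libraries and well below untreated 8 and 9. Means were 54.9 ± 2.13 CPM in the PD-L1 antibody group, 6.22 ± 2.64 CPM in the isotype antibody group and 10.9 ± 5.38 CPM in untreated cells (SD, n = 3 each). The log2 fold change of the PD-L1 antibody was 3.02 (SE 0.35) against the isotype antibody and 2.36 (SE 0.35) against untreated cells, or 1.89 without untreated 7. These values are for the transcript at chr3:19957054-19992998 on the plus strand. Longer Cp transcripts in the files run into Hps3, a gene on the opposite strand, and were not used. RefSeq gives Cp 2 promoter windows. The one that ends at the deposited start held none of the 4 motifs, and the other held TTGCNNAA once, 70 bases before its own start.

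In the fit over all genes the 6 members were among those called higher with the PD-L1 antibody than with the isotype antibody, where 18.2% of all 13741 genes were called higher and 36.4% were called in either direction. Of the calls over all genes in that comparison 49.9% were higher, against 27.4% when libraries were scaled by their totals and not by TMM. They were also among those called higher than in untreated cells, where 22.0% of genes were called higher, 20.5% lower and 42.4% in either direction. This is no test of the members and nothing is read from it, since they were chosen for these differences and since Saa1 and Saa2 could pass the filter only where they were high. Both comparisons share the PD-L1 antibody libraries. In order of level per kilobase of exon with the PD-L1 antibody, Saa3 (20704 CPM per kilobase) was followed by Lcn2 (265 ± 22.1), Hp (105 ± 6.09), Cp (14.1 ± 0.547), Saa1 (6.98 ± 2.04) and Saa2 (0.758 ± 0.0727; SD, n = 3 each), and no neighbours in this order overlapped in their ranges of 1 SD. In isotype antibody libraries the order was Saa3 (169 ± 121), Lcn2 (75.7 ± 27.0), Hp (17.5 ± 2.79) and Cp (1.60 ± 0.679). The ranges of 1 SD of the first 2 overlapped, which leaves aside that both were measured in the same libraries. The ratio of Saa3 to Lcn2 in CPM was 52.4, 44.7 and 49.1 in PD-L1 antibody libraries, against 1.77, 1.33 and 0.742 in isotype antibody libraries and 1.64, 1.81 and 4.69 in untreated libraries.

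The isotype antibody was set against no antibody to ask whether antibody protein alone went with a difference, the only comparison that played no part in the choice of members. None of Saa3, Lcn2, Hp and Cp was called in limma's moderated test with Benjamini-Hochberg adjustment, in which 0.00728% of all genes were called (1 of 13741). Saa1 and Saa2, absent or at most 0.171 CPM in these libraries, were too low for a call in either direction. The largest difference among the 4 was for Cp, at -0.66 (SE 0.35, adjusted p = 0.446 in limma with Benjamini-Hochberg adjustment). Saa3 differed by -0.50 (SE 0.45), Lcn2 by 0.48 (SE 0.19) and Hp by 0.19 (SE 0.11) on the log2(CPM + 1) scale. Before adjustment 1 member, Lcn2, and 1748 of all genes passed 0.05 in limma, and after Benjamini-Hochberg adjustment the limma p of Lcn2 was 0.362. Without untreated 7 the test called Cp lower with the isotype antibody, by -1.12 (adjusted p = 0.00827, limma with Benjamini-Hochberg adjustment), in a fit that called 2295 genes in all. Over the other alternatives, edgeR and DESeq2 included, the adjusted p of Cp ran from 0.356 to 0.890. The call for Cp thus turned on 1 untreated library.

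Among the 6 libraries without PD-L1 antibody, Saa3 and Cp varied more than most genes. The highest library was 5.09 times the lowest for Saa3 (untreated 9 against isotype antibody 6) and 3.87 times for Cp (untreated 8 against isotype antibody 6). It was 2.27 times for Lcn2 and 1.49 times for Hp, in both cases isotype antibody 4 against untreated 9. The median over 9871 genes of at least 5 CPM was 1.32 times, and 0.172% of these genes varied at least as much as Saa3, 0.405% as much as Cp, 3.24% as much as Lcn2 and 25.0% as much as Hp. So Lcn2 and Hp had the same highest and lowest libraries, which differed from those of Saa3.

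The genes whose pattern was most like a member were ranked by Pearson's r of log2(CPM + 1) among 9500 genes, as a description in which libraries share their depth and scaling. Over all 9 libraries the 5 closest to Saa3 were Mir6972, Acp5, Marco, Siglece and Zfand3 (r 0.995 to 0.996). These values are set by the gap between the PD-L1 antibody libraries and the rest, and Hp (rank 127), Cp (rank 328) and Lcn2 (rank 509) also reached r of 0.950 or more. The Mir6972 hairpin lies within Cfb, so its reads cannot be told from those of Cfb. Over the 6 libraries without PD-L1 antibody the closest to Saa3 were Gngt2, Zfand3, Tmem223, Klhl22 and Il1rap (r 0.966 to 0.978), while r was 0.79 with Cp, 0.24 with Lcn2 and 0.18 with Hp. For Lcn2 the closest over all 9 were Eloa, Cpne1, Nrg1, Vti1a and Rbm47 (r 0.981 to 0.989), and over the 6 they were Xpc, Mxd3, Ngp, Pgap3 and Tmem127 (r 0.977 to 0.990). Hp stood at rank 13 of likeness to Lcn2 over all 9 libraries and at rank 20 over the 6 (r 0.94).

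Lcn2 and Hp are also stored in the granules of neutrophils, and marrow cultures can retain neutrophil precursors, so neutrophil granule genes were set beside them. Ltf (lactotransferrin, an iron-binding granule protein) had 38.1, 54.5 and 41.1 CPM in PD-L1 antibody libraries, against 262, 158 and 156 CPM in isotype antibody libraries and 109, 135 and 101 CPM in untreated libraries. Ngp, another granule protein gene, averaged 80.8 ± 19.7, 275 ± 109 and 179 ± 29.2 CPM in the same order of groups. Both were lowest with the PD-L1 antibody, where Lcn2 and Hp were highest. Other neutrophil markers differed from Ltf and Ngp. Mmp8 averaged 75.2, 69.6 and 53.1 CPM in the same order of groups, and Cxcr2 8.61, 6.96 and 4.93 CPM. These were called higher with the PD-L1 antibody against untreated cells only, while S100a8 and S100a9 were called in neither comparison. The ratio of Lcn2 to Ltf was 5.42, 4.18 and 5.94 in PD-L1 antibody libraries, against 0.348, 0.335 and 0.319 in isotype antibody libraries and 0.408, 0.363 and 0.396 in untreated libraries. The ratio of Hp to Ltf was 3.87, 2.43 and 3.54 in PD-L1 antibody libraries, against 0.106 to 0.143 in isotype antibody libraries and 0.153 to 0.201 in untreated libraries. Within the 6 libraries without PD-L1 antibody, by contrast, the ratio of Lcn2 to Ngp kept to 0.227 to 0.278, and isotype antibody 4, the highest of them for Lcn2 and Hp, was also the highest for Ltf and Ngp (401 CPM). The part of neutrophil RNA in the difference between those 6 libraries was not tested.

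Of 16 neutrophil markers 15 were tested. With the PD-L1 antibody 1 rose and 6 fell against the isotype antibody, and 3 rose and 8 fell against untreated cells, in limma with Benjamini-Hochberg adjustment. These calls were 46.7 and 73.3% of the markers tested, beside 36.4 and 42.4% of all genes. Ltf fell by 2.06 (SE 0.20), Ngp fell by 1.72 (SE 0.24) and Cd177, a neutrophil surface protein, fell by 1.25 (SE 0.20) on the log2(CPM + 1) scale against the isotype antibody, while Csf3r, the receptor of granulocyte colony-stimulating factor, rose by 0.50 (SE 0.08). The median over the 15 was -0.60 against the isotype antibody and -0.92 against untreated cells, beside -0.01 over all genes in both comparisons. The summed level of the list was 581 to 751 CPM in the PD-L1 antibody group, 878 to 1490 CPM in the isotype antibody group and 701 to 875 CPM in untreated cells. In bulk RNA, fewer cells of a type and less RNA per cell cannot be told apart.

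**Figure D3:**
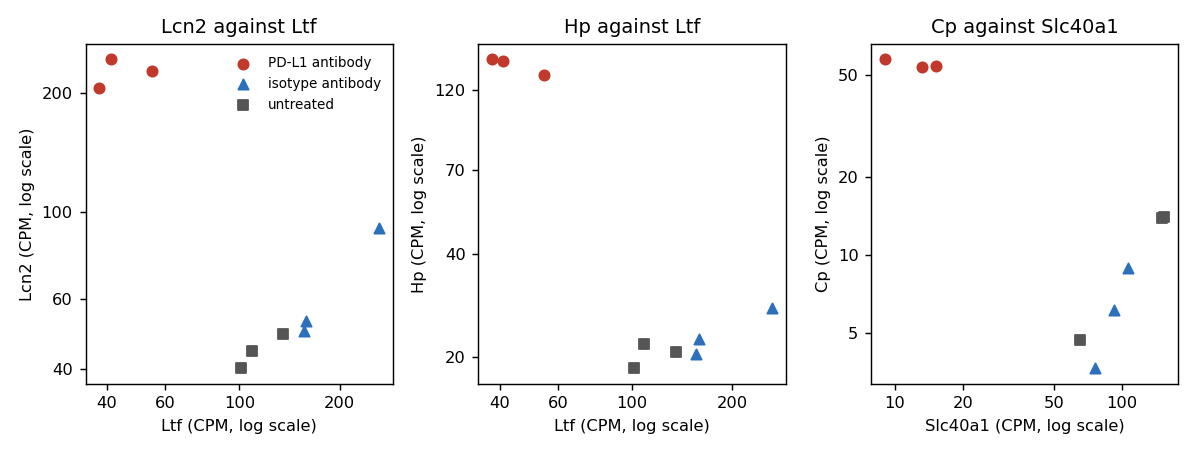
Lcn2 against Ltf, Hp against Ltf and Cp against Slc40a1, each in CPM on log axes, 1 point per library of the PD-L1 antibody, isotype antibody and untreated groups (3 each). The PD-L1 antibody libraries sit at the upper left of each panel, with Lcn2 at 206 to 244 CPM and Ltf at 38.1 to 54.5 CPM.

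Receptors and partners of the secreted proteins were called about as often as genes at large. Of 15 listed receptors and partners 12 were tested, and 3 rose and 2 fell with the PD-L1 antibody against the isotype antibody as well as against untreated cells (limma with Benjamini-Hochberg adjustment), with medians of -0.03 and 0.13. In each comparison 41.7% were called, beside 36.4 and 42.4% of all genes. Fpr2, a formyl peptide receptor that binds serum amyloid A, had 154, 133 and 169 CPM in PD-L1 antibody libraries, against 9.85, 5.58 and 6.40 CPM in isotype antibody libraries and 6.54, 6.58 and 7.06 CPM in untreated libraries. It rose by 4.24 (SE 0.17) and 4.30 (SE 0.17) on the log2(CPM + 1) scale. Tlr2, another receptor reported for serum amyloid A, averaged 539 ± 97.7, 185 ± 22.4 and 197 ± 10.5 CPM in PD-L1 antibody, isotype antibody and untreated libraries (SD, n = 3 each). Hmox1, the haem oxygenase that breaks down haem taken up with haemoglobin, averaged 1153 ± 170, 260 ± 2.07 and 256 ± 3.82 CPM in the same groups. Cd163, the receptor for the complex of haptoglobin and haemoglobin, averaged 2.46 ± 1.11, 2.52 ± 0.764 and 1.98 ± 0.798 CPM (SD, n = 3 each), its groups overlapped, and it was not called in either comparison. Slc22a17, a receptor reported for lipocalin 2, did not pass the filter.

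Slc40a1 encodes ferroportin, the iron exporter beside which ceruloplasmin works. It had 15.2, 13.1 and 9.05 CPM in PD-L1 antibody libraries, against 106, 91.6 and 75.8 CPM in isotype antibody libraries and 65.4, 153 and 150 CPM in untreated libraries. It fell by 2.79 (SE 0.29) against the isotype antibody and fell by 3.13 (SE 0.29) against untreated cells on the log2(CPM + 1) scale, opposite in sign to Cp. The ratio of Cp to Slc40a1 was 3.55, 4.06 and 6.34 in PD-L1 antibody libraries, against 0.0840, 0.0668 and 0.0479 in isotype antibody libraries and 0.0717, 0.0917 and 0.0928 in untreated libraries. Among the 6 libraries without PD-L1 antibody, those with more Slc40a1 tended to have more Cp, untreated 8 and 9 being the highest for both.

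Of the listed inducers and regulators of the acute-phase response most rose with the PD-L1 antibody. The 27 on the list were all tested, and 20 rose and 4 fell against the isotype antibody, while 18 rose and 4 fell against untreated cells (limma with Benjamini-Hochberg adjustment). Among all genes 18.2 and 22.0% were called higher and 18.2 and 20.5% lower. The medians of the list were 0.51 and 0.61. Some of the rises lost their call with total-count scaling, as given in the closing section. Among the cytokines, Il1a averaged 83.7 ± 17.8 CPM in the PD-L1 antibody group, 1.38 ± 0.289 CPM in the isotype antibody group and 1.49 ± 0.297 CPM in untreated cells (SD, n = 3 each). Il1b averaged 527 ± 108, 29.5 ± 8.96 and 27.0 ± 0.951 CPM in the same groups, with log2 fold changes of 4.14 (SE 0.19) and 4.22 (SE 0.19). Il6 was low in all groups and highest with the PD-L1 antibody, at 7.61, 7.74 and 13.0 CPM there, against 0.294 to 0.781 CPM with the isotype antibody and 0.304 to 0.737 CPM without antibody. Tnf rose by 1.80 (SE 0.19) and 1.71 (SE 0.19). Osm, oncostatin M, another cytokine of the interleukin-6 family, rose by 0.51 against the isotype antibody (adjusted p = 0.0182 in limma with Benjamini-Hochberg adjustment) but differed by 0.24 from untreated cells (adjusted p = 0.221 in the same limma test). The call for Osm was lost without PD-L1 antibody 3 or isotype antibody 5.

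Il1r1, the signalling receptor of interleukin-1, averaged 23.4 ± 1.09 CPM in the PD-L1 antibody group, 2.87 ± 1.05 CPM in the isotype antibody group and 2.44 ± 0.782 CPM in untreated cells (SD, n = 3 each). The 4 regulators that fell in both comparisons were Cebpa, the C/EBP factor of resting myeloid cells, and the receptor subunits Il6ra, Il6st and Lifr, and they were named after their values were seen. So the receptor chains that carry interleukin-6 signals fell in the same libraries in which Il6 rose. Stat3 rose by 0.46 (SE 0.09) and 0.63 (SE 0.09). Socs3, a feedback inhibitor that STAT3 induces, averaged 506 ± 129, 23.4 ± 2.21 and 26.3 ± 2.78 CPM in PD-L1 antibody, isotype antibody and untreated libraries (SD, n = 3 each). Nfkbiz, a nuclear NF-kB cofactor known for its role at the Lcn2 promoter, averaged 59.9 ± 17.1, 15.7 ± 0.400 and 18.3 ± 0.585 CPM in the same groups.

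The C/EBP factors were less clear. Cebpb had 625, 664 and 1042 CPM in PD-L1 antibody libraries, against 253, 362 and 206 CPM in isotype antibody libraries and 330, 574 and 533 CPM in untreated libraries. It rose by 1.50 (SE 0.26) against the isotype antibody and by 0.70 (SE 0.26) against untreated cells, where the call was lost without untreated 7 (log2 fold change 0.45) and also without PD-L1 antibody 2, PD-L1 antibody 3, isotype antibody 4 or untreated 9. Cebpd had 55.3, 54.4 and 106 CPM in PD-L1 antibody libraries, against 38.7, 43.4 and 27.8 CPM in isotype antibody libraries and 34.3, 50.2 and 48.3 CPM in untreated libraries. PD-L1 antibody 3 was about 2 times as high as the other 2 libraries of its group. The adjusted p for Cebpd in limma with Benjamini-Hochberg adjustment was 0.0155 against the isotype antibody (log2 fold change 0.91) and 0.0622 against untreated cells (0.64), and the call against the isotype antibody was lost without isotype antibody 6.

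**Figure D4:**
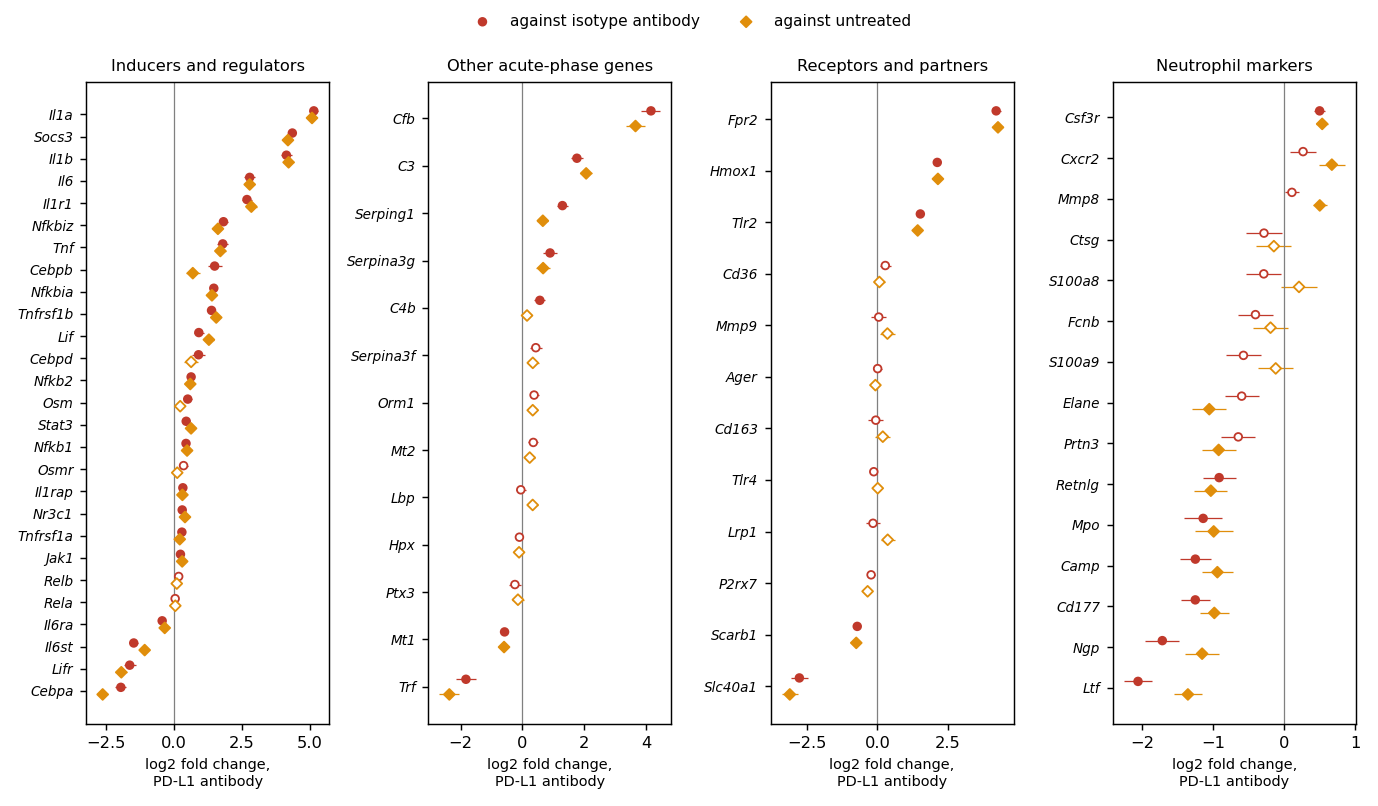
Log2 fold change (log2(CPM + 1) scale) of the PD-L1 antibody against the isotype antibody (circles) and against untreated cells (diamonds) for the tested genes of 4 lists, with bars of 1 SE; filled symbols have an adjusted p under 0.05 and open ones do not. Il1a, Socs3 and Il1b lead the inducers and regulators, Cfb the other acute-phase genes and Fpr2 the receptors and partners, while Ltf and Ngp are lowest among the neutrophil markers.

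Acute-phase genes other than the members gave calls in both directions. Of 34 on the list 30 were in the files and 13 passed the filter. Against the isotype antibody 5 rose and 2 fell, and against untreated cells 4 rose and 2 fell (limma with Benjamini-Hochberg adjustment), with medians of 0.38 and 0.33. These calls were 53.8 and 46.2% of the genes tested, beside 36.4 and 42.4% of all genes, so the share against untreated cells was near that of genes at large. Cfb, complement factor B, averaged 939 ± 48.7 CPM in the PD-L1 antibody group, 57.6 ± 35.4 CPM in the isotype antibody group and 74.5 ± 16.3 CPM in untreated cells (SD, n = 3 each), a log2 fold change of 4.16 (SE 0.31) and 3.66 (SE 0.31). C3, the central complement protein, averaged 1454 ± 26.0, 430 ± 55.2 and 362 ± 136 CPM in the same groups. Serping1, the inhibitor of the first complement protease, was low, at 3.90 ± 0.961, 0.996 ± 0.387 and 2.07 ± 0.286 CPM. Trf, the iron carrier transferrin, which falls in the acute-phase response in humans, had 59.6, 60.9 and 52.7 CPM in PD-L1 antibody libraries, against 232, 257 and 149 CPM in isotype antibody libraries and 160, 424 and 404 CPM in untreated libraries. It fell by 1.83 (SE 0.32) and fell by 2.37 (SE 0.32) on the log2(CPM + 1) scale.

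Markers of other cells gave these values beside the members. Of the 9 macrophage markers 4 rose and 2 fell with the PD-L1 antibody against the isotype antibody, and likewise against untreated cells (limma with Benjamini-Hochberg adjustment). Of all genes 36.4 and 42.4% were called in either direction in these comparisons. Adgre1, Itgam, Fcgr1 and Cd14 rose by 1.28, 1.15, 1.45 and 1.70 against the isotype antibody on the log2(CPM + 1) scale, while Cd68 fell by 0.58 and Mrc1 fell to 18.5 CPM with the PD-L1 antibody, against 78.0 CPM with the isotype antibody (group means). Csf1r (0.05), Mertk (-0.01) and Lyz2 (-0.19) were not called. Of 11 markers of dendritic cells, lymphocytes and stromal cells 10 were tested, and the list summed to 70.9 to 89.0 CPM in the PD-L1 antibody group, 56.5 to 72.7 CPM in the isotype antibody group and 71.3 to 97.4 CPM in untreated cells. Among them Xcr1 averaged 3.16 ± 0.345, 0.699 ± 0.149 and 0.597 ± 0.243 CPM, Clec9a 0.0923 ± 0.0750, 1.25 ± 0.152 and 1.66 ± 0.613 CPM, Flt3 8.87 ± 0.751, 15.5 ± 1.39 and 13.2 ± 4.28 CPM and Pecam1 32.7 ± 2.58, 19.1 ± 6.50 and 25.0 ± 3.74 CPM in PD-L1 antibody, isotype antibody and untreated libraries (SD, n = 3 each). Their part in the levels of the members was not tested. Annotated exons of another gene overlap Cfb, Trf, Il1a, Il1b, Il6ra, Il1rap, Stat3, Cebpa, Cebpb, Cebpd, Fpr2, Itgam, Csf1r and Clec9a among the genes given here in GENCODE M21, and since the labels do not give the strand used in counting, reads of such pairs cannot be told apart.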

How the data were processed

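Oligo(dT)-selected RNA of 9 samples was sequenced in pairs of 150-base reads, per the labels' protocols. Partek and STAR are named, without versions or roles, per the submitters' processing notes, and the aligner settings and genome build are not given in the sources used here. Transcript positions matched GRCm38. The deposited read counts cover each transcript's whole genomic span, introns included, as tested on the files. The average coverage per exonic base is a signal that the authors deposited with the exon length. The percent of exonic length covered and the base quality score are given per the file headers. Transcripts without exonic coverage are absent and were taken as 0.

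Exonic read equivalents were average coverage times exon length divided by 150, for 1 transcript per symbol (the one with the highest sum). Of 22376 genes, 13741 passed edgeR's filterByExpr. CPM used TMM factors (0.919 to 0.932 with the PD-L1 antibody, 1.009 to 1.063 otherwise). All 9 libraries were fitted in limma with a trended variance on log2(CPM + 1), 1 mean per group, two-sided, Benjamini-Hochberg over all genes, threshold 0.05. This follows an earlier account of these data, and the members, lists and tests were chosen with earlier results of these data known. Named genes were the members, up to 4 genes per list with the lowest p against the isotype antibody, the direct partners and main regulators of the members, and the 5 genes most like Saa3 and Lcn2. Promoter windows of Saa1, Saa2, Saa3, Lcn2 and Cp came from RefSeq (GRCm38.p6). Reads copied by PCR carried no molecular identifiers and may repeat one molecule. The procedure was tested on simulated data for the PD-L1 antibody against the isotype antibody on 13533 genes. There 100 genes were changed 2-fold and 100 were changed 4-fold. Of those changed 2-fold 95% and of those changed 4-fold 98% were recovered, with calls for 5 of 13333 unchanged genes. In the deposited libraries 36.4% of the 13741 genes were called in that comparison. Whether the recovery and the calls for unchanged genes carry over to these libraries was not tested. Alternatives were other scalings, no filter, other pseudocounts, edgeR, DESeq2, the longest transcript and leaving out each library. Software was R 4.3.3 (limma 3.58.1, edgeR 4.0.16, DESeq2 1.42.0) and Python 3.11.15 (pandas 2.3.3, numpy 2.4.6, matplotlib 3.10.9).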

Additional observations from a re-analysis of the deposited data

How the results depend on the processing

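Leaving out each library in turn gave 6.67 to 7.72 for Saa3, 1.68 to 2.11 for Lcn2, 2.45 to 2.66 for Hp and 2.73 to 3.28 for Cp against the isotype antibody. The fold change of Saa1 against the isotype antibody ran from 0.87 with a pseudocount of 5 to 6.90 in edgeR on exonic read equivalents. Against untreated cells, leaving out untreated 7 gave 6.4 for Saa3 (6.67 with it), -3.53 for Slc40a1 (-3.13) and -2.82 for Trf (-2.37). In that comparison Lrp1, Orm1 and Zbtb46 were then newly called higher and P2rx7, Mertk and Cd79a lower. Tnfrsf1a, Cebpb and Flt3 lost their call. Total-count scaling in place of TMM moved the median gene by -0.14 (log2) and gave 27.4% of calls against the isotype antibody as higher in place of 49.9%. With it Osm, Il1rap, Tnfrsf1a, Jak1, Nr3c1 and C4b, all called higher with TMM, lost their call in that comparison, and Tlr4, P2rx7, S100a9, Elane and Prtn3 were newly called lower. Against untreated cells Il1rap, Tnfrsf1a, Jak1, Cebpb and Serpina3g lost their call as higher with that scaling, and P2rx7 and Mertk were newly called lower.

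The isotype antibody against untreated cells gave 1 call among all genes in limma, 2 with total-count scaling, 2 in edgeR on deposited reads, 141 in DESeq2 and 0 in edgeR on exonic read equivalents, and DESeq2 called 1 neutrophil marker. Leaving out each library gave 0 to 2295 calls among all genes, 0 to 1 member, 0 to 3 other acute-phase genes, 0 to 6 inducers and regulators, 0 to 4 receptors and partners and 0 to 1 neutrophil marker, the highest of each without untreated 7. No paired analysis was possible because the groups share no replicate number. Depth limits Saa1 and Saa2, with at most 5.09 exonic read equivalents per library outside the PD-L1 antibody group.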
